A study of Mus musculus with 9 samples.

Results

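Primary microglia from newborn mouse brains were compared directly in 2 activation states, M1-skewed cells given LPS and M2a-skewed cells given IL-4, on whole-transcript exon arrays. The 3 arrays labelled LPS and the 3 labelled IL-4 were taken, 6 of the 9 arrays of the series, with all 21212 rows of the value table, of which 18786 carry a single gene symbol. All cells came from wild-type CD-1 pups at P0-P1 and were grown for 5 to 7 days with the growth factors GM-CSF and M-CSF (each at 10 ng/ml), which keep microglia alive and dividing. Serum was withdrawn overnight, and the stimulus (LPS at 100 ng/ml, IL-4 at 20 ng/ml) stayed on the cells for 4 h. The 3 PBS arrays of the series entered only an alternative fit over all 9 arrays and otherwise appear as reference levels. Levels are log2 values, so a difference of 1 is a 2-fold difference, and every difference is LPS minus IL-4 unless a side is named. A gene is called when its adjusted p is under 0.05 (limma, adjusted over all rows). The labels do not say whether replicates are separate preparations, so p-values measure the spread between arrays, which may be technical.

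LPS, a cell wall component of Gram-negative bacteria, is sensed by TLR4 with CD14 and MD-2. One branch of this receptor runs through MyD88 to NF-κB and AP-1 and turns on cytokine genes, and another runs through TRIF and IRF3 to interferon β, which acts back on the cells through its own receptor and turns on interferon-stimulated genes. IL-4 binds its receptor α chain, activates JAK1 and JAK3 and the factor STAT6, and in mouse macrophages is known for arginase 1, the chitinase-like protein Ym1 (Chil3), Fizz1 (Retnla) and the mannose receptor (Mrc1).

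The labelled cell type was checked first. Over 13 measured microglia and macrophage markers the median level was 11.39 to 11.53 on the LPS arrays and 11.70 to 11.81 on the IL-4 arrays. Astrocyte markers were also bright, with medians of 10.13 to 10.37 and 10.32 to 10.34 over 13 genes, and Gfap and Aqp4, the defining astrocyte genes, lay between 10.70 and 12.09 on all 6 arrays. The fibroblast and meningeal list had medians of 8.18 to 8.35 with LPS and 8.74 to 8.83 with IL-4, and 7 of its 12 genes were called higher with IL-4 and none with LPS, with a median difference of -0.54. Of the neuron markers 8 of 15 were higher with LPS, led by Gap43 (1.13), and Stmn2, bright on all arrays (9.98 to 10.76), was 0.52 higher with IL-4. Of the astrocyte markers 5 of 13 were higher with IL-4 and 1 with LPS, by 1.12, beside 26.1% and 19.5% of all rows. Without LPS replicate 3 the counts were 9 and 1. Neuron, lymphocyte and neutrophil lists had medians of at most 6.69, 5.16 and 5.56. The arrays measured all RNA of a culture, so fewer cells of a type and less RNA per cell cannot be told apart.

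The first principal component of the 6 arrays held 85.0% of the variance and set LPS apart from IL-4, and the second held 10.8% and set LPS replicate 3 apart from LPS replicates 1 and 2. The median level of 20 ependymal and motile cilia genes was 6.62 and 6.60 in LPS replicates 1 and 2, 8.19 in LPS replicate 3 and 7.85 to 8.21 with IL-4. On the PBS arrays it was 6.75, 6.85 and 8.64, so that LPS and PBS each had 1 bright array and IL-4 had 3. The oligodendrocyte list was also brightest on LPS replicate 3, at 6.91, 6.95 and 8.24 with LPS against 7.44 to 7.55 with IL-4. Of the cilia genes 3 of 20 were called higher with IL-4 (beside 26.1% of all rows), and 19 without LPS replicate 3. Foxj1, the regulator of motile cilia, was 8.36, 8.35 and 9.86 with LPS and 10.27, 10.51 and 10.36 with IL-4, a difference of 1.52 higher with IL-4 whose call was lost without LPS replicate 1 or 2 or any IL-4 array (adjusted p 0.0617 to 0.0747). The part of these other cells in the differences below was not tested.

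**Figure D1:**
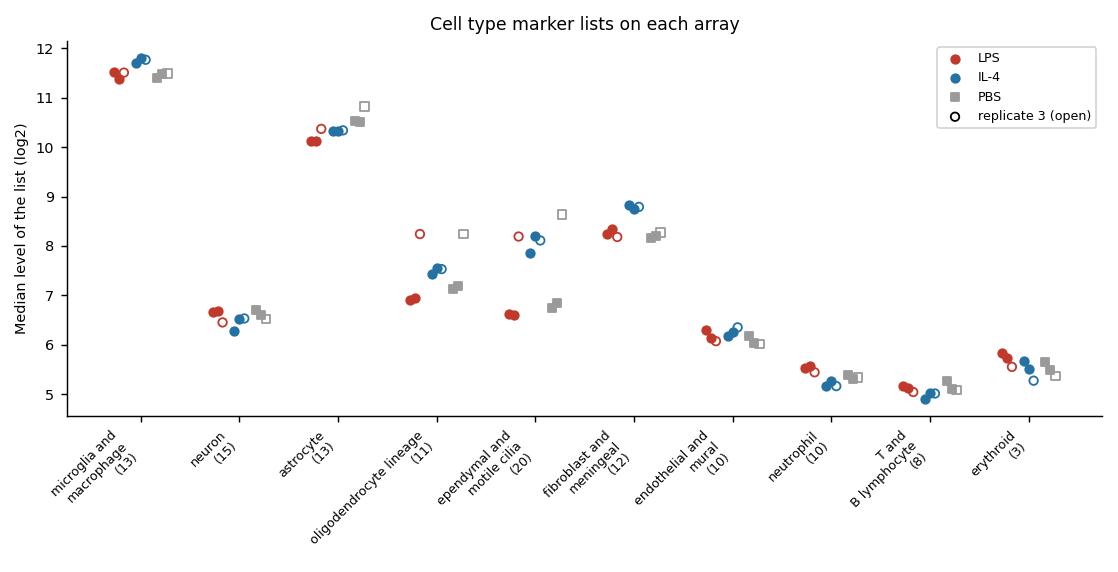
Median log2 level of each cell type marker list (vertical axis) on each array (3 LPS in red, 3 IL-4 in blue, 3 PBS in grey; replicate 3 open), with the number of measured genes in brackets. The microglia and macrophage list is brightest on all arrays, and LPS and PBS replicate 3 lie above their other replicates for the motile cilia list (8.19 and 8.64) and the oligodendrocyte list.

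Between LPS and IL-4, 9682 of the 21212 rows were called, 45.6%, with 4139 higher with LPS (19.5%) and 5543 higher with IL-4 (26.1%). The larger differences lay mostly on the LPS side. A difference of at least 1 was called for 863 rows higher with LPS (4.07%) and 596 higher with IL-4 (2.81%), one of at least 2 for 287 and 41, and one of at least 4 for 56 and 2. The median size of a called difference was 0.422 higher with LPS and 0.499 higher with IL-4, so most calls on both sides were small. Without LPS replicate 3 the calls were 5946 higher with LPS and 6637 with IL-4, and without IL-4 replicate 3 they were 2664 and 4111. The array medians of LPS were lower than those of IL-4, and subtracting them moved the median difference of all rows from 0.0294 to 0.183, a shift of 0.154, and the share of calls higher with LPS from 42.7% to 71.6%. The count of calls with a difference of at least 1 moved far less, from 1459 to 1447.

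The direction of the calls also followed the level. Among the 5303 dimmest rows, with means up to 5.66, 780 of 903 calls were higher with LPS (86.4%), whereas among the 5303 rows between 7.32 and 8.90 885 of 3174 were (27.9%). Olfactory and vomeronasal receptor genes, which microglia are not known to use, give the level of a silent row. Over their 1259 rows the median level was 3.86 and the 95th percentile 5.72, 128 were called and 123 of these were higher with LPS, with a median difference of 0.108. Only 5 of the 128 differed by at least 1, among them Olfr56, at 6.78, 6.88 and 6.68 with LPS against 4.35, 4.43 and 4.30 with IL-4. Where the dimmer condition of a gene lay at or under 5.72, its measured difference is read as a lower bound, and a fold is given as at least the ratio of the brighter mean to that level.

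**Figure D2:**
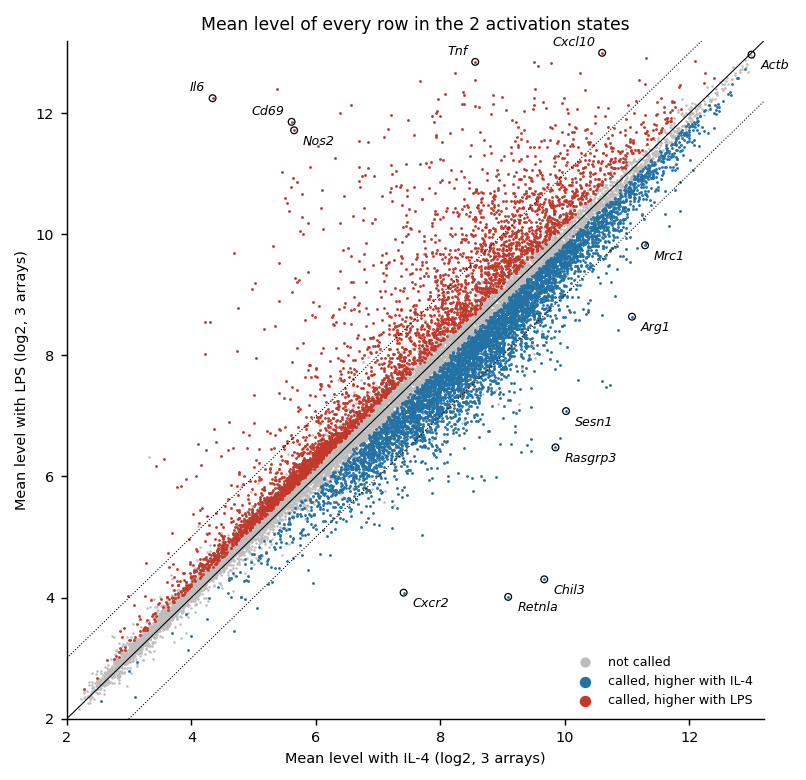
Mean log2 level of every row with IL-4 (horizontal axis) and LPS (vertical axis), 3 arrays each, with the line of equal level (solid) and a difference of 1 (dotted). Called rows are red (4139, higher with LPS) or blue (5543, higher with IL-4), and Il6 lies farthest above the line while Chil3 and Retnla lie farthest below it.

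For 3552 rows (16.7%) the 95% interval of the difference lay within 0.25 of 0. The brightest of them lay close to the highest value of the table, 13.06, where the arrays may no longer resolve a difference. They included β-actin (Actb), at 12.96 to 12.98 with LPS and 12.99 to 13.01 with IL-4, the elongation factor Eef1a1, ferritin heavy chain (Fth1), vimentin (Vim), lysozyme (Lyz2), thioredoxin (Txn1), the MHC class I light chain B2m and cathepsin L (Ctsl). For B2m the difference was 0.00 with an interval from -0.13 to 0.14.

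Il6, the acute-phase cytokine, had the largest measured difference. Its level was 12.23, 12.37 and 12.17 with LPS and 4.25, 4.34 and 4.42 with IL-4. The groups were far apart, all LPS arrays were near the top of the scale and all IL-4 arrays lay in the range of the silent receptor genes. The measured difference was 7.92 (SE 0.075, n = 3 and 3), at least 92.7-fold, with an adjusted p of 1.13e-07 in limma, and the PBS arrays read 3.31 to 3.71. Cd69, a lectin receptor of activated leukocytes, was 11.71, 11.68 and 12.18 against 5.61, 5.73 and 5.50, at least 70.7-fold higher with LPS. Nos2, the inducible nitric oxide synthase, was 11.80, 11.75 and 11.62 against 5.71, 5.67 and 5.58, at least 64.2-fold higher. In both genes every LPS array lay above every IL-4 array by more than 5 on the log2 scale. The chemokine Cxcl9 (49.0-fold) and the TNF-family ligand Tnfsf15 (48.7-fold) came next.

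Among the 20 largest differences on the LPS side, 4.77 to 7.92, most of the others were interferon-stimulated genes. They were the nucleic acid sensors of the HIN-200 family Ifi205, Ifi209 and Ifi214, the antiviral GTPases Mx1 and Mx2, the interferon-inducible Ifit3b, Rsad2 (viperin), Gbp4, Gbp5, Iigp1 and Gm12250, with the death ligand Tnfsf10 (TRAIL), the immune receptor Slamf7, Ms4a4c and the chloride channel protein Clic5. Tnfsf10 had the tightest values, at 10.50, 10.54 and 10.52 with LPS and 5.58, 5.54 and 5.52 with IL-4, and the groups were 4.98 apart. For all 20 genes the PBS arrays lay below the LPS arrays, and for 14 the brightest PBS array was within 1 of the IL-4 mean. Ifit3b and Ifit3 have nearly the same sequence, as do members of the Oas1 and Gbp families, and their rows may share signal.

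The promoters of the leading genes are shown because NF-κB, the factors of the interferon response and STAT6 bind known letter patterns. RefSeq sequence of build GRCm38.p6 was searched on both strands from 250 bases before to 50 after each start, for the first 10 genes on each side. The 250 bases before the start follow for 2 genes of each side, 5′ to 3′ on the strand of the gene, with matches in capitals.
Il6 (chr5:30012864-30013113, plus strand): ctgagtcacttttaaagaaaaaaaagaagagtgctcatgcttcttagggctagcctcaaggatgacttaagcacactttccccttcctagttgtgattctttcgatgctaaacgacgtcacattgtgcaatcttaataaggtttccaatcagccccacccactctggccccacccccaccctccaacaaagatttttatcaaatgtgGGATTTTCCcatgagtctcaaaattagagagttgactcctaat
Cxcl9 (chr5:92328080-92328329, minus strand): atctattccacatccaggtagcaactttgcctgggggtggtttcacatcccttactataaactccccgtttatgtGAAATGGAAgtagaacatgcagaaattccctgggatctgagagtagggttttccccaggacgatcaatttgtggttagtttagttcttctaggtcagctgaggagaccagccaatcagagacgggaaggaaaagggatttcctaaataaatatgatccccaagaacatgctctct
Chil3 (chr3:106167565-106167814, minus strand): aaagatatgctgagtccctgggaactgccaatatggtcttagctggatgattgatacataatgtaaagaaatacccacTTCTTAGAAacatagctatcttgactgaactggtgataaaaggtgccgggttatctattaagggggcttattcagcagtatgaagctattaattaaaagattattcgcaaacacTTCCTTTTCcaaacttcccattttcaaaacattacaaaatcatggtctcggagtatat
Retnla (chr16:48842359-48842608, plus strand): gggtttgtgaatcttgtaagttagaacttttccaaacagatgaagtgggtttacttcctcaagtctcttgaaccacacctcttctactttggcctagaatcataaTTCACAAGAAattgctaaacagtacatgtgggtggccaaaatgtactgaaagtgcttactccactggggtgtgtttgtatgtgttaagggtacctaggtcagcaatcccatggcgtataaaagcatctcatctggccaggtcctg

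The capitals in Il6 mark GGANTTTCC, a form of the NF-κB site, which stood in 1 of the 6 LPS-side promoters that the table holds, in none of the 16 IL-4-side promoters and in 1.25% of all 32851 promoters. In Cxcl9 they mark GAAANNGAA, a core of the interferon response element, found in 2 of 6, 4 of 16 and 8.56%. In Chil3 they mark TTCNNNGAA, the form that STAT factors share (0 of 6, 1 of 16 and 8.30%), and a reverse match of the interferon core. In Retnla they mark TTC and GAA with 4 bases between, the spacing that STAT6 takes (1 of 6, 1 of 16 and 6.95%). Several genes have more than 1 listed start, so the 16 promoters belong to 9 genes. Cd69, Nos2, Mx1, Mx2 and Mtss1 were not matched. A match is only a run of letters and says nothing on binding.

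**Figure D3:**
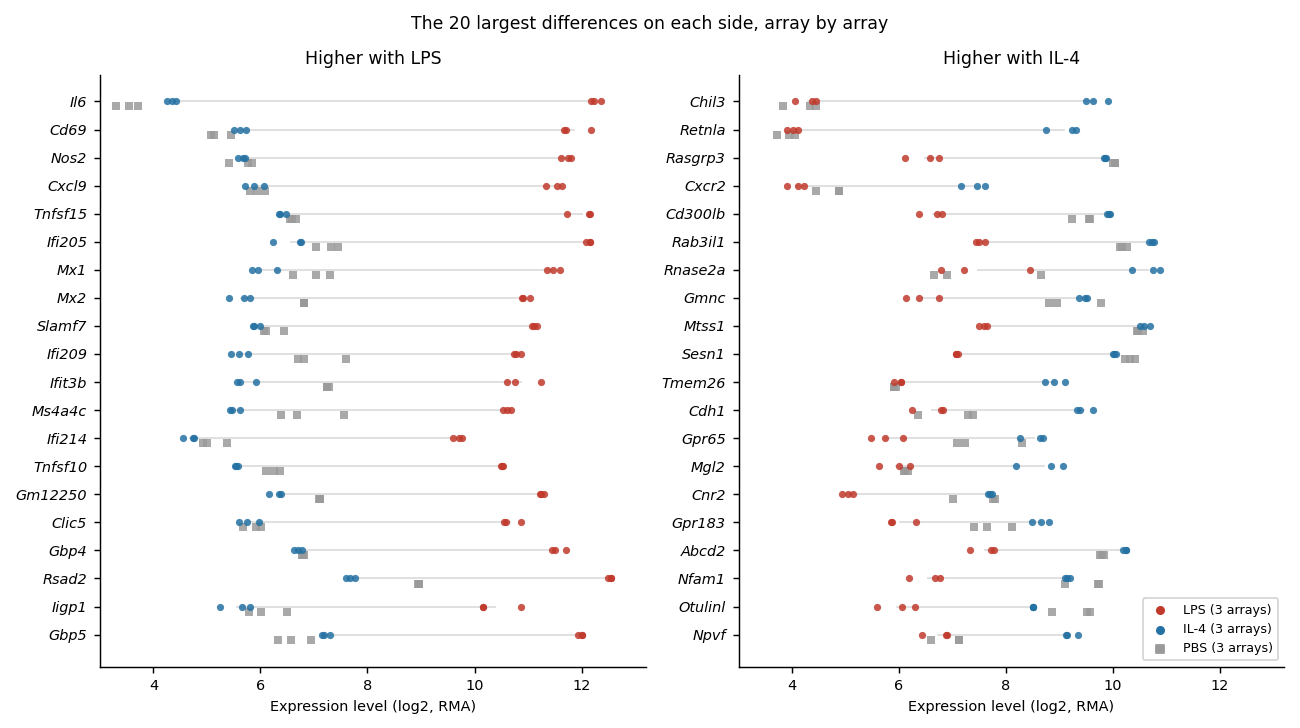
Log2 level on each array (horizontal axis; 3 LPS in red, 3 IL-4 in blue, 3 PBS as grey squares) for the 20 called genes with the largest difference on each side. The LPS-side genes have PBS below all LPS arrays in 20 of 20, and the IL-4-side genes split into those with PBS near LPS, such as Chil3, and those with PBS near IL-4, such as Rasgrp3.

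On the IL-4 side the largest differences belonged to the known markers of alternative activation. Chil3 was 9.90, 9.62 and 9.49 with IL-4 and 4.45, 4.38 and 4.06 with LPS, at least 15.5-fold higher with IL-4 (measured difference -5.37, SE 0.141, adjusted p 1.26e-06 in limma). Retnla was 8.74, 9.24 and 9.30 against 4.11, 4.02 and 3.91, at least 10.4-fold higher. In both genes all LPS arrays lay in the silent range, as did the PBS arrays. The other 18 of the 20 differed by 2.47 to 3.37. In contrast to the LPS side, the PBS arrays lay below the IL-4 arrays in only 12 of the 20 and reached the IL-4 range in the other 8.

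Genes of the first kind, low with LPS and PBS, were the chemokine receptor Cxcr2 (7.16, 7.60 and 7.45 with IL-4 against 4.22, 4.11 and 3.91 with LPS, PBS 4.45 to 4.87), the membrane protein Tmem26, the lectin Mgl2, the adhesion molecule Cdh1 (E-cadherin) and the neuropeptide precursor Npvf. Genes of the second kind, bright with PBS, were Rasgrp3, a Ras activator (9.82, 9.85 and 9.87 with IL-4, 6.58, 6.74 and 6.12 with LPS, PBS 10.00 to 10.03), and the stress-responsive Sesn1 (9.99, 10.06 and 10.01 against 7.06, 7.10 and 7.07, PBS 10.23 to 10.40). With them stood the actin regulator Mtss1, the cannabinoid receptor Cnr2 and Nfam1. For these the LPS arrays stood apart from both other conditions. The peroxisomal transporter Abcd2 was also bright with PBS, at 9.75 to 9.83, but below its IL-4 arrays of 10.19 to 10.24. Rnase2a, a secreted ribonuclease, was 10.36, 10.74 and 10.88 with IL-4 against 7.22, 6.79 and 8.44 with LPS, where replicate 3 was the highest but did not reach the IL-4 arrays. Gmnc, a regulator of multiciliated cells, was 3.03 higher with IL-4, with LPS values of 6.13, 6.38 and 6.74 and PBS values of 8.81, 8.96 and 9.77, highest in replicate 3 of both, as for the cilia list.

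All 21 measured inflammatory cytokines were called higher with LPS (100%, beside 19.5% of all rows), with a median difference of 3.26 beside 0.0294 for all rows. Tnf was 12.86, 12.84 and 12.84 with LPS and 8.55, 8.56 and 8.55 with IL-4, 19.6-fold apart. Il1b, the fever-inducing cytokine, was 12.61, 12.66 and 12.72 against 8.17, 8.39 and 8.13, 21.6-fold apart. In both, replicates of a condition differed by under 0.3 while the groups differed by more than 4. In the wider family of 29 rows named as interleukins, 19 were higher with LPS, 9 were not called and Il16 was 0.42 higher with IL-4. The T-cell polarizing cytokines Il27 (4.43), Il15 (4.19), Il23a (3.50) and Il12a (1.73) were higher, as were the colony-stimulating factors Csf2 (4.26) and Csf3 (2.06) and the alarmins Il33 (3.48) and Il1a (3.04). The antagonist Il1rn had the smallest difference of the list, 1.55, and was bright in both states (mean 11.7 and 10.2). Il10, the anti-inflammatory cytokine, was 6.15, 5.77 and 6.66 with LPS and 4.18, 4.19 and 4.10 with IL-4, a call of 2.03 at a low level. Ifnb1, the interferon of the TRIF branch, was 6.62, 6.62 and 6.06 against 4.54, 4.66 and 4.54, a difference of 1.85.

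Of 18 inflammatory chemokines 17 were higher with LPS (beside 19.5% of all rows), with a median of 2.75. Among all measured chemokine genes, 12 of 18 of the CC and 9 of 13 of the CXC family were higher with LPS, and Ccl24 and Cxcl14 (0.51) were higher with IL-4. The largest differences after Cxcl9 belonged to the neutrophil attractants Cxcl2 (4.24), Cxcl1 (4.09) and Cxcl3 (3.71) and to Ccl4 (4.09) and Cxcl11 (3.96). Several were bright in both states. Cxcl10 was 12.96, 12.97 and 13.06 with LPS and 10.63, 10.59 and 10.59 with IL-4, and Ccl3 differed by 0.78 between means of 12.9 and 12.1. The LPS levels of both lay close to the highest value of the table, 13.06, so their differences may be measured too small. The exception was Ccl8, at 9.55, 9.58 and 8.08 with LPS and 7.87, 7.86 and 8.19 with IL-4 (adjusted p 0.0640 in limma). Its LPS replicate 3 lay inside the IL-4 range, and without that array it was called, with a difference of 1.59.

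Enzymes that make small mediators divided between the states. Besides Nos2, LPS cells had more Ptgs2 (cyclooxygenase-2, 4.00), Ptges (prostaglandin E synthase, 3.77), Acod1 (itaconate synthesis, 3.21) and Gch1 (3.07), which makes the cofactor of nitric oxide synthase. Arg1, the arginase that competes with Nos2 for arginine, was 10.69, 11.30 and 11.27 with IL-4 and 8.34, 8.26 and 9.32 with LPS. All IL-4 arrays were above all LPS arrays, and the difference was 2.44 higher with IL-4 (5.44-fold, SE 0.312, adjusted p 0.00111). The mitochondrial arginase Arg2 went the other way, with 10.97, 11.04 and 10.05 against 9.20, 9.05 and 9.24, a difference of 1.52. Ltc4s, the leukotriene C4 synthase, was higher with IL-4 by 1.36, a call lost without IL-4 replicate 1 or 3 (adjusted p 0.0610 and 0.0637), and the prostacyclin receptor Ptgir by 0.91. In all, 8 of 15 such genes were higher with LPS, 4 with IL-4 and 3 were not called. These counts stand beside 19.5% and 26.1% of all rows, so that the IL-4 count was near its share of all rows. With the array medians subtracted they were 8 and 2.

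All 31 measured interferon-stimulated genes were higher with LPS (beside 19.5% of all rows), with a median difference of 3.05. Rsad2 was 12.49, 12.55 and 12.55 with LPS and 7.68, 7.77 and 7.59 with IL-4, and the 2'-5' oligoadenylate synthetase-like Oasl1 was 11.63, 11.54 and 11.65 against 7.13, 7.10 and 7.02. In both, the difference was more than 4.5 and the spread of replicates was under 0.2. The median level of the list was 11.57 to 11.68 with LPS and 8.33 to 8.43 with IL-4, and on the PBS arrays it was 9.14 to 9.26, between the 2. Ifitm3, an antiviral membrane protein, was bright in both states (mean 12.6 and 12.4) and differed by 0.20, a call lost without any single array but LPS replicate 3 (adjusted p 0.0529 to 0.0802). The 13 guanylate binding proteins and immunity-related GTPases, which attack vacuoles of intracellular microbes, were all higher with LPS, by 2.64 (Irgm1) to 4.85 (Gbp4).

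Gene families grouped by symbol differed in how many members were called. All 9 HIN-200 genes were higher with LPS by 1.13 (the DNA sensor Aim2) to 5.56 (Ifi205), all 5 measured IFIT genes by 2.33 to 5.17, and 10 of 12 OAS genes were called. Of 8 Schlafen genes 7 were called, led by Slfn1 (4.50), and 8 of 17 MS4A genes, led by Ms4a4c. In the PARP family, 8 of 12 were higher with LPS, led by the interferon-inducible Parp14 (2.74), and 4 were higher with IL-4, none by more than 0.60. In the TRIM family 18 of 63 were higher with LPS, led by Trim30d (4.23), 15 were higher with IL-4 and 30 were not called. Of all rows 19.5% were higher with LPS and 26.1% with IL-4. With the array medians subtracted 37 TRIM genes were higher with LPS and 9 with IL-4, so their division rests on the centring.

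The brakes of NF-κB were higher with LPS together with its subunits. Of 19 genes 17 were called higher with LPS (beside 19.5% of all rows) and none higher with IL-4, and the median was 1.29. Nfkbiz, an inducible nuclear IκB protein, was 11.21, 11.14 and 11.01 with LPS against 7.79, 7.83 and 7.80 with IL-4, 9.93-fold apart. The ubiquitin-editing enzyme Tnfaip3 (A20) differed by 2.53, Nfkb2 by 1.90, Nfkbia (IκBα) by 1.41 and the transactivating subunit Rela by 0.85. The deubiquitinases Cyld and Otud7b were not called, with differences of -0.07 and -0.01.

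The LPS receptor complex divided. Tlr4 was 8.94, 8.96 and 8.11 with LPS and 8.83, 8.92 and 8.95 with IL-4 and was not called (difference -0.23, 95% interval -0.78 to 0.31), and its LPS replicate 3 lay below all other arrays. Ly96, which encodes MD-2, differed by 0.33 and was not called (adjusted p 0.110, and 0.00843 without LPS replicate 3). The co-receptor Cd14 was higher with LPS by 2.07, Tlr3, the sensor of double-stranded RNA, by 2.07 and Tlr2 by 1.94. Tlr8 went the other way, at 11.13, 11.15 and 11.19 with IL-4 against 9.87, 9.91 and 9.55 with LPS. Downstream, the kinase-dead brake Irak3 (2.41), Irak2 (1.82) and Myd88 (1.73) were higher with LPS. Over 23 genes of this group, 15 were higher with LPS and 3 with IL-4, beside 19.5% and 26.1% of all rows, and 5 were not called.

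The machinery for MHC class I was higher with LPS. Of 18 class I and immunoproteasome genes 15 were higher with LPS and none with IL-4, with the peptide transporter Tap1 (11.31, 11.26 and 11.31 against 8.53, 8.45 and 8.43), Tap2 (1.91), Tapbpl (1.78) and the immunoproteasome subunit Psmb8 (1.73) leading. The heavy chains H2-D1 and H2-K1 were bright in both states and differed by 0.19 and 0.17, calls lost without any single array but LPS replicate 3 (adjusted p 0.0635 to 0.0718 and 0.0798 to 0.125). Of 13 class II genes 3 were higher with LPS and 3 with IL-4, shares near those of all rows (19.5% and 26.1%), and with the array medians subtracted the counts were 5 and 2. H2-Aa was 8.97, 8.83 and 8.19 with LPS and 6.67, 7.22 and 8.11 with IL-4, a difference of 1.33 whose call ended when the replicate number was a block (adjusted p 0.0640) or without LPS replicate 1 or 2 or IL-4 replicate 1 or 2 (0.0803 at the lowest), and the call of H2-Ab1 (1.18) was lost without LPS replicate 1 or IL-4 replicate 2 (0.0578 and 0.0562). Levels of H2-Aa with PBS ran from 7.37 to 9.67, so the spread within a condition was wide. H2-DMa, which loads peptide, was 0.85 higher with IL-4, and the invariant chain Cd74 was not called (-0.11).

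All 18 genes for costimulatory and checkpoint ligands and receptors were called, beside 45.6% of all rows. Of them 14 were higher with LPS and 4 with IL-4, beside 19.5% and 26.1% of all rows. Cd40 was 12.05, 12.08 and 11.86 with LPS and 7.82, 7.99 and 7.99 with IL-4, 16.8-fold apart, and Slamf1 (4.17), Icosl (2.77), Cd80 (1.75) and Cd86 (1.67) were higher too. The 2 ligands of the inhibitory receptor PD-1 lay on opposite sides. Cd274 (PD-L1) was 11.54, 11.54 and 11.62 with LPS against 9.37, 9.29 and 9.24 with IL-4. Pdcd1lg2 (PD-L2) was 5.31, 5.29 and 4.85 with LPS against 7.11, 7.25 and 7.30 with IL-4. Neither gene had overlapping groups. The inhibitory receptors Vsir (VISTA, 1.38), Cd200r1 (1.26) and Havcr2 (TIM-3, 0.73) were also higher with IL-4.

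A list of 34 genes known for alternative activation in macrophages held 24 that were higher with IL-4 (beside 26.1% of all rows), 6 higher with LPS and 4 not called, with a median difference of -0.82. Beyond those above, the IL-36 receptor Il1rl2 (2.35), the VEGF receptor Flt1 (1.82), the lectin Clec10a (1.73), the factor Egr2 (1.54), the mannose receptor Mrc1 (1.47) and the nuclear receptor Pparg (1.24) were higher with IL-4. Mrc1 was 11.24, 11.33 and 11.31 with IL-4 and 10.29, 10.40 and 8.77 with LPS, and its difference was 0.95 without LPS replicate 3, while the call was lost without any IL-4 array (adjusted p 0.0780 to 0.0836). The chemokine Ccl24 was called at 0.85, a call lost with the replicate number as a block (adjusted p 0.0638) and without IL-4 replicate 2 or 3 (0.0814 and 0.104). Chil4, a near copy of Chil3, was 4.16, 4.10 and 3.70 with IL-4 and 3.53, 3.43 and 3.12 with LPS, all in the silent range.

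The 6 members on the other side were Ch25h, which makes 25-hydroxycholesterol (2.63), the chemokines Ccl22 (2.59) and Ccl17 (2.46), the cytokine brake Socs1 (1.60), the oxidized LDL receptor Olr1 (1.19) and transglutaminase Tgm2 (0.88). Ccl22 was 9.94, 10.06 and 10.31 with LPS against 7.39, 7.56 and 7.58 with IL-4, and Ccl17 was 11.03, 10.95 and 9.15 against 7.26, 7.95 and 8.53. The groups did not overlap in either, although Ccl17 varied by more than 1 among replicates of both conditions and its call was lost without IL-4 replicate 1 (2.14, adjusted p 0.0512). The factor Myc differed by 0.01 (95% interval -0.11 to 0.13), with values (10.39, 10.42 and 10.35 against 10.35, 10.38 and 10.40) above the PBS arrays, which read 9.13 to 9.64.

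Genes of the IL-4 receptor pathway were mostly higher with LPS. Of 20 genes 12 were higher with LPS and 5 with IL-4, beside 19.5% and 26.1% of all rows, so that the IL-4 count was near its share. Those higher with LPS included the brakes Socs3 (2.70) and Socs1 and the receptor chains Il13ra1 (1.90) and Il4ra (0.63). Stat6 was not called, at 9.47, 9.53 and 8.96 with LPS and 9.53 on each IL-4 array. Cish was not called either (0.07), with 9.51, 9.36 and 9.43 for IL-4 and 9.82, 9.79 and 8.90 for LPS, while PBS read 6.18 to 7.49. On the IL-4 side were the lipid phosphatase Inpp5d (SHIP1), at 9.93 on each IL-4 array against 7.80, 7.71 and 8.01, the adaptors Dok2 (1.22), Irs1 (0.77) and Irs2 (0.25, with no call once the array medians were subtracted or without IL-4 replicate 1, adjusted p 0.0558), and Socs2 (0.82).

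**Figure D4:**
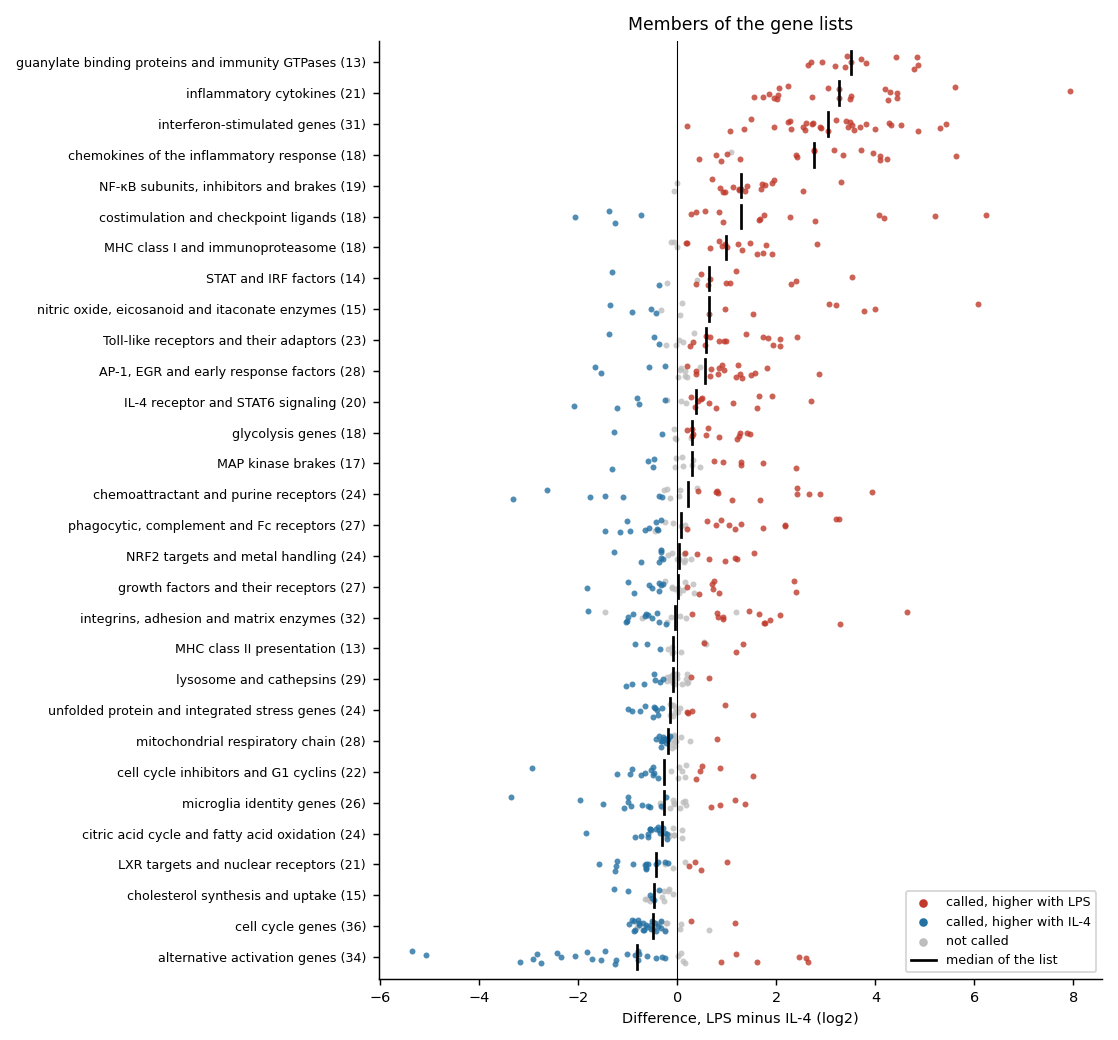
Difference between LPS and IL-4 (log2, horizontal axis) of each measured member of 30 gene lists, 1 point per gene, red where called higher with LPS, blue where called higher with IL-4 and grey where not called, with a bar at the median and the number of members in brackets. The medians run from 3.51 for guanylate binding proteins to -0.82 for alternative activation genes, and most lists in the middle hold members on both sides.

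Among STAT and IRF factors 10 of 14 were higher with LPS (beside 19.5% of all rows), led by Irf7 (3.53), the amplifier of interferon production, Irf1 (2.39) and Stat2 (2.30). Irf4, a factor of alternative activation, was 7.13, 6.92 and 7.15 with IL-4 and 6.10, 5.78 and 5.36 with LPS, and Irf3 was 0.37 higher with IL-4. Cebpb was 10.33, 10.10 and 9.88 with LPS against 8.82, 8.90 and 8.80, whereas Cebpa was 9.07, 8.90 and 8.92 with IL-4 against 7.33, 7.38 and 7.21. Among 28 AP-1, EGR and early factors 17 were higher with LPS and 4 with IL-4, beside 19.5% and 26.1% of all rows. Batf2 (2.86) and Batf (1.81) led the LPS side, and the 4 on the IL-4 side were Cebpa, Egr2, Egr1 (0.57) and Batf3 (0.25). The call of Egr1 was lost without LPS replicate 1 or 2 or IL-4 replicate 2 or 3 (adjusted p 0.0573 to 0.0709), and that of Batf3 once the array medians were subtracted. Fos itself was not called (7.18, 6.98 and 7.92 against 7.17, 7.22 and 7.12). The MAP kinase phosphatases split as well, with Dusp2 (2.39) and Dusp16 (1.72) higher with LPS and Dusp14 (1.32) and Dusp6 (0.59) higher with IL-4.

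Genes that mark microglia in the brain leaned toward IL-4, with 12 of 26 higher with IL-4, 4 with LPS and 10 not called. Of all rows 26.1% were higher with IL-4 and 19.5% with LPS, and with the array medians subtracted the counts of the list were 11 and 7. The fractalkine receptor Cx3cr1 was 9.31, 9.55 and 9.46 with IL-4 and 7.74, 7.60 and 8.49 with LPS, with no overlap. On the PBS arrays Cx3cr1 was 9.15, 9.22 and 10.86. The growth factor receptor Csf1r was 0.99 higher with IL-4, Tmem119 0.94 and the purine receptor P2ry12 0.71. Fcrls differed by 1.96, but its LPS values were 7.31, 7.11 and 9.31 and its PBS values 7.40, 7.67 and 10.35. Its call was lost without any single array but LPS replicate 3 (adjusted p 0.0707 to 0.0982 in limma). For Cx3cr1 and Fcrls replicate 3 was the brightest LPS and PBS array, as for the cilia list. The part of this in their differences was not tested. On the LPS side were P2ry13 (1.37), the phagocytic receptor Mertk (1.17), Cd33 (0.85) and Ptprc (0.67). The lineage factors Spi1 (0.16) and Sall1 (-0.06) and the adaptor Tyrobp (-0.10) were not called.

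Of 27 phagocytic, complement and Fc receptor genes 12 were higher with LPS and 10 with IL-4, beside 19.5% and 26.1% of all rows. Once the array medians were subtracted the counts were 14 and 7. The scavenger receptor Marco was 10.11, 9.90 and 10.53 with LPS against 6.78, 6.97 and 6.97 with IL-4, and complement factor B (Cfb, 3.20), Trem1 (2.18) and the activating Fc receptors Fcgr1 (2.18) and Fcgr4 (1.29) were higher with LPS. For Fcgr1 the PBS arrays read 9.77 to 10.27 against 8.15 to 8.26 with IL-4, so that the IL-4 arrays were the ones that stood apart. The complement chain C1qa (0.58), Fcgr3 (0.65) and the inhibitory Cd300a (1.16) were higher with IL-4, with the call of Fcgr3 lost without LPS replicate 1 or any IL-4 array (adjusted p 0.0606 to 0.124) and its difference 0.39 without LPS replicate 3. Among chemoattractant and purine receptors, the decoy-like Ccrl2 (3.92), P2ry14 (2.87), the formyl peptide receptor Fpr2 (2.66) and Ccr7 (1.66) were higher with LPS. Cxcr2, Gpr183 (2.64), Cxcr4 (1.76) and P2ry6 (1.46) were higher with IL-4, and the totals were 11 and 7 of 24.

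**Figure D5:**
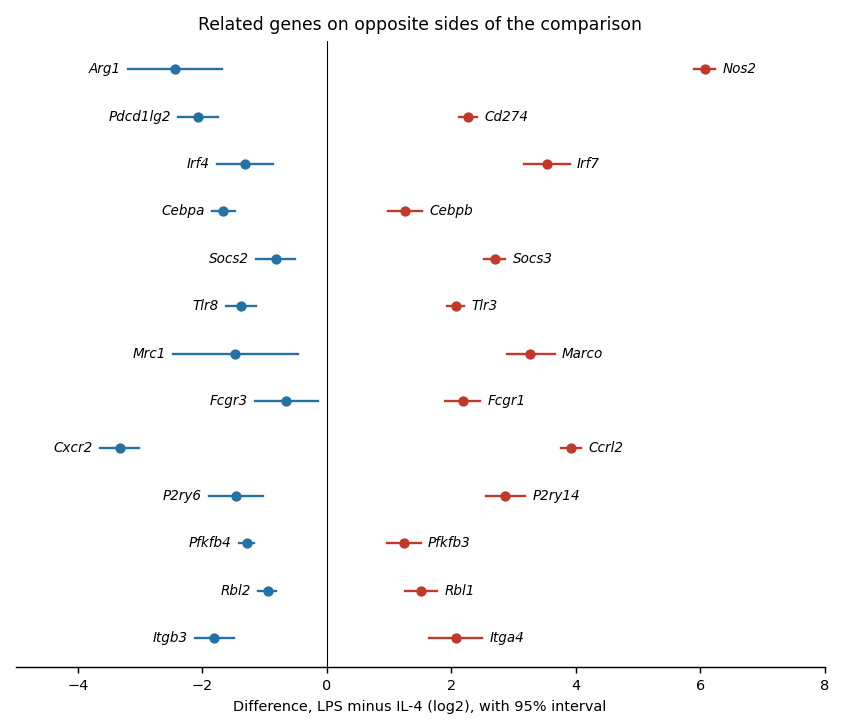
Difference between LPS and IL-4 (log2, horizontal axis) with its 95% interval for 13 pairs of genes of related function, picked after their values were seen, 1 pair per line, red where higher with LPS and blue where higher with IL-4. The opposite sides follow from that choice, and the pairs include Nos2 (6.07) with Arg1 (-2.44) and Cd274 (2.27) with Pdcd1lg2 (-2.07).

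Glycolysis and mitochondrial metabolism leaned to opposite sides, by small amounts. Of 18 measured glycolysis genes 12 were higher with LPS and 2 with IL-4, beside 19.5% and 26.1% of all rows. Gpi1, Gapdh, Pgam1 and Eno1 were not measured. The LPS side was led by hexokinase Hk2 (9.46, 9.38 and 9.38 against 7.83, 8.05 and 7.95), the transporters Slc2a6 (1.41) and Slc16a3 (1.26) and Pfkfb3 (1.24), which makes the activator of phosphofructokinase. Its relative Pfkfb4 was 1.29 higher with IL-4, and the bright enzymes Aldoa (-0.07) and Pkm (-0.02) were not called. Of 24 citric acid cycle and fatty acid oxidation genes 16 were higher with IL-4 and none with LPS, with a median of -0.32. With the array medians subtracted 12 were higher with IL-4 and 2 with LPS, with a median of -0.17. The coactivator Ppargc1a, a driver of mitochondrial gene expression, was 9.19, 9.07 and 9.10 with IL-4 and 7.29, 7.20 and 7.33 with LPS, and Acadm (0.85), Ppargc1b (0.73) and Cpt2 (0.59) followed. PBS levels of Ppargc1a, 9.15 to 9.18, lay within the IL-4 range. Of 28 respiratory chain genes 14 were higher with IL-4, all by 0.44 or less, and only 3 were once the array medians were subtracted, so that their direction rests on the centring.

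Nuclear receptors and lipid genes leaned toward IL-4. Of 21 LXR targets and nuclear receptors 14 were higher with IL-4 and 4 with LPS, beside 26.1% and 19.5% of all rows. Rxra, the shared partner of these receptors, was 9.42, 9.33 and 9.39 with IL-4 and 7.82, 7.99 and 7.60 with LPS, and the clock repressor Nr1d1 (1.27) and the cholesterol exporters Abcg1 (0.89) and Abca1 (0.39) were higher with IL-4. The glucocorticoid receptor Nr3c1 was 1.01 higher with LPS. Of 15 cholesterol synthesis genes 6 were higher with IL-4 and none with LPS, led by Dhcr7 (1.29) and Sqle (0.99). Lysosomal genes were mostly not called, 20 of 29, among them the bright cathepsins Ctsd (-0.14) and Ctsb (-0.11). The lysosomal regulator Tfeb (0.92) and acid lipase Lipa (0.48) were higher with IL-4 and Ctsc (0.63) with LPS.

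Cell division genes were higher with IL-4. Of 36 genes 23 were higher with IL-4, 2 with LPS and 11 not called, with a median of -0.49, and 18 were higher with IL-4 once the array medians were subtracted. Ccna2 (cyclin A2) was 9.69, 9.42 and 9.58 with IL-4 and 8.64, 8.79 and 8.31 with LPS, and Cdk1 (0.78), E2f1 (0.85) and Rrm2 (0.87) lay on the same side. The helicase subunits Mcm2 to Mcm7 were all higher with IL-4, by 0.25 to 0.80. The exceptions were the kinetochore motor Cenpe, 1.17 higher with LPS, and Tpx2 (0.27), whose call was lost without any single array but LPS replicate 3 (adjusted p 0.0667 to 0.0965). Mki67, the common proliferation marker, was 10.48, 10.53 and 9.20 with LPS and 9.53, 9.31 and 9.45 with IL-4. It was not called, and was 1.07 higher with LPS without LPS replicate 3. Kinesins (18 of 36 higher with IL-4, 2 with LPS) and histones (36 of 64 and 3) were called more often on the IL-4 side than all rows (26.1%), but with the array medians subtracted the counts were 12 and 9 for kinesins and 21 and 9 for histones. Inhibitors and G1 cyclins divided, with Rbl1 (1.52) and Cdkn1a (p21, 0.46) higher with LPS and Sesn1, Trp53inp1 (1.22), Rbl2 (0.95) and Cdkn1b (p27, 0.49) higher with IL-4.

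Zinc finger proteins of the Zfp series formed the widest block on the IL-4 side. Of 331 measured, 183 were higher with IL-4 and 29 with LPS, beside 26.1% and 19.5% of all rows, and the median difference was -0.29. Zfp760 was 8.89, 8.45 and 8.56 with IL-4 and 6.95, 6.83 and 7.08 with LPS. On the LPS side Zfp811 stood out, with 6.86, 6.83 and 7.00 against 4.58, 4.59 and 4.66. Subtracting the array medians gave 137 higher with IL-4 and 70 with LPS. The Zfp rows had median levels of 7.12 to 7.46 on the arrays, near the range in which calls leaned toward IL-4 in general, and the part of the level in their lean was not tested. Aminoacyl-tRNA synthetases, which charge transfer RNA, also leaned toward IL-4, with 19 of 32 higher with IL-4 and 3 with LPS. Once the array medians were subtracted the counts were 12 and 3. The tryptophan enzyme Wars, known to respond to interferon, was 0.93 higher with LPS. Amino acid genes of the integrated stress response, Slc7a5 (0.91) and Asns (0.76), were higher with IL-4, as was the kinase Eif2ak3 (0.99), and the phosphatase subunit Ppp1r15a (1.52) was higher with LPS.

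Adhesion and matrix genes took both sides, 13 of 32 higher with LPS and 12 with IL-4, beside 19.5% and 26.1% of all rows. Once the array medians were subtracted the counts were 14 and 8. The protease inhibitor Serpinb2 was 10.60, 10.60 and 11.01 with LPS and 6.03, 6.13 and 6.13 with IL-4, 24.9-fold apart, and collagenase Mmp13 (3.28) and the integrin chains Itga4 (2.07), Itgal (1.86) and Itga5 (1.76) were higher with LPS. The integrin chains Itgb3 (1.81) and Itgax (1.02) were higher with IL-4. The gelatinase Mmp9 had values of 7.21, 7.03 and 9.87 with LPS and 8.83, 9.97 and 9.70 with IL-4, overlapping through LPS replicate 3, and was not called. Among 27 genes of growth factors and their receptors 8 were higher with LPS and 9 with IL-4, and 12 and 5 with the array medians subtracted. The HGF receptor Met was 2.36 higher with LPS, and the ligand Pdgfa (0.87) was higher with IL-4. In a list of 24 antioxidant and metal genes 7 were higher with LPS, 7 with IL-4 and 10 were not called. With the array medians subtracted 11 were higher with LPS and 3 with IL-4. The zinc and iron importer Slc39a14 (1.55) and mitochondrial superoxide dismutase Sod2 (1.20) were higher with LPS. On the IL-4 side were the transferrin receptor Tfrc (1.28) and the glutathione enzyme Gclc (0.74).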

How the data were processed

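Total RNA of the cultures was hybridised to Affymetrix GeneChip Mouse Exon 1.0 ST arrays, 1 array per sample and 3 per condition. The authors deposited log2 values made by RMA, which subtracts background, applies quantile normalization and summarizes probes, and the submitters' processing notes also name affy, with versions not given in the sources used here. RMA had equalised the arrays before deposit, so a global shift in RNA cannot be seen, and summaries over a whole gene hide differences between exons. Gene symbols came from the platform annotation given with the table. Of 21212 rows 18786 had 1 symbol, 6 had several and 2420 had none, and only rows with 1 symbol are named.

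Groups followed the labels. LPS minus IL-4 was fitted with lmFit and eBayes of limma 3.58.1 in R 4.3.3 on the 6 arrays, two-sided, with Benjamini-Hochberg adjustment over all rows and a threshold of 0.05, and the script was tested on simulated data. Arrays hold no read depth, and their number, 3 per condition, limits the precision. Named were the 20 called genes with the largest difference and no overlap on each side, 4 called members of each list with the largest differences and the 2 brightest that missed the threshold, the leading called member of each symbol family on each side, the 15 brightest genes whose 95% interval lay within 0.25 of 0, and the 10 of the largest moderated t on each side. Other list members were named after their values were seen, and the HIN-200 family was also added then. The gene lists and the members were chosen with earlier results of these data known. The 15 alternatives were the methods' t-test, a fit over all 9 arrays, an intensity trend or robust prior in eBayes, weights per array, a second quantile normalization over the 6 arrays, subtraction of array medians, removal of the dimmest rows (7070), the replicate number as a block, and leaving out each array in turn. Python 3.11.15 with pandas 2.3.3 and matplotlib 3.10.9 wrote the tables and drew the plots.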

Additional observations from a re-analysis of the deposited data

How the results depend on the processing

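The count of genes higher with LPS, 4139, was 9569 with the array medians subtracted and 6502 with array weights, where LPS replicate 3 had the lowest weight, 0.1615. Leaving out 1 array gave 2664 (without IL-4 replicate 3) to 5946 (without LPS replicate 3) genes higher with LPS, 4111 to 6637 higher with IL-4, 6775 to 12583 called in all and 1372 to 1794 called with a difference of at least 1. The methods' t-test called 3082 and 4445 after adjustment, 730 and 561 at the study's unadjusted threshold for genes, 1e-04, and 4536 and 5714 at an unadjusted 0.05. Of 327 called genes among the 413 followed, 267 kept call and direction under all 15 alternatives and 0 reversed. The methods' t-test ended 43 of these calls and quantile normalization 22, while array weights added 26. The cause of these changes was not tested.

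Whether the replicate numbers pair the arrays cannot be decided from 3 arrays per condition. Deviations of same-numbered LPS and IL-4 arrays correlated at 0.289, -0.2282 and 0.0593 across genes, and those of differently numbered arrays at -0.2723 to 0.2701. With the number as a block 9105 rows were called, 3947 higher with LPS, 5158 higher with IL-4 and 1469 with a difference of at least 1. With it 11 of the followed genes lost their call. Precision is limited by 3 arrays per condition and, for dim rows, by signal near that of the silent receptor genes.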
